A study of Arabidopsis thaliana with 6 samples.

Results

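Plastids keep a small genome of their own, and 2 kinds of RNA polymerase read it. The plastid-encoded polymerase resembles the bacterial enzyme. Its core is made from rpoA, rpoB, rpoC1 and rpoC2, and it transcribes most photosynthesis genes. A phage-type polymerase encoded in the nucleus transcribes the rpoB, rpoC1 and rpoC2 genes themselves, along with other housekeeping genes of the plastid. The 5 genes described here are rpoB, rpoC1 and rpoC2, which encode the beta, beta-prime and beta-double-prime subunits, rps2, which encodes protein S2 of the small plastid ribosome subunit, and atpA, which encodes the alpha subunit of the chloroplast ATP synthase.

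Each gene was read by a single probe set that the platform annotation assigns to that gene alone. They make up 5 of 22746 probe sets and 5 of the 69 plastid-encoded genes that had a probe set of their own. They were chosen from the same deposited values that are described below, both by genotype and by replicate number, so those values are a description and no test of the 5 genes is drawn from them. In the RefSeq gene table of assembly TAIR10.1 the plastid genes run in the order atpA, atpF, atpH, atpI, rps2, rpoC2, rpoC1, rpoB. The stretch that holds the 5 genes therefore also holds atpF, atpH and atpI, 3 further ATP synthase genes between atpA and rps2.

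The transgenic plants were Arabidopsis seedlings carrying 35S-PaWRKY1, in which the cauliflower mosaic virus 35S promoter, active in most tissues, drives the WRKY-family gene PaWRKY1 (3 arrays). Their controls carried the empty vector pCAMBIA 1302 (3 arrays). All plants had 2 days of seed vernalization and were 7 days old on full-strength MS medium, and RNA came from shoots and roots together. The labels call the arrays of a group biological replicates and do not say whether they came from separate transgenic lines or sowings, so every error below measures only the spread between these samples.

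The deposited values are centred, for each probe set, on the mean of the 3 empty-vector arrays. A value thus says how an array differs from the controls and holds no expression level, so levels of different genes cannot be compared and the labelled tissue could not be checked by the level of its markers. Log base 2 and the direction, with a higher value for more transcript, are taken by convention, and folds are printed on the condition that the base is right. In whole seedlings, fewer cells of a type and less RNA per cell cannot be told apart. How plastid RNA, which does not carry stable poly(A) tails, was primed for labelling is not given in the sources used here. Array medians over all probe sets differed by at most 0.0601.

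The values of the 5 genes varied with the replicate number, while the means of the 2 genotypes lay close together. Both arrays numbered 3, the 35S-PaWRKY1 one and the empty-vector one, were high for each of the 5, and the other 4 arrays were low. The gap between replicate 3 and the mean of replicates 1 and 2 was 2.31 to 3.32 log2 units in 35S-PaWRKY1 plants and 2.64 to 3.49 in empty-vector plants. That would be 4.94-fold to 10.0-fold in 35S-PaWRKY1 and 6.23-fold to 11.2-fold in empty-vector plants if the base is 2. The mean difference between the genotypes, 35S-PaWRKY1 minus empty vector, lay between -0.18 and 0.22 for the 5 genes.

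Among the polymerase genes, rpoB, whose product forms the catalytic centre together with the products of rpoC1 and rpoC2, had values of -1.196, -1.08 and 1.98 in 35S-PaWRKY1 replicates 1, 2 and 3, against -1.11, -0.94 and 2.04 in empty-vector replicates 1, 2 and 3. Replicate 3 was high in both genotypes, and the genotypes overlapped. The gap of replicate 3 was 3.12 in 35S-PaWRKY1 and 3.07 in empty-vector plants. Between the genotypes the mean was -0.10 ± 1.80 in 35S-PaWRKY1, against 0.0 ± 1.77 in empty-vector plants (SD, n = 3 each), where the second mean is 0 by the centring.

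The rpoC1 gene, whose product with that of rpoC2 corresponds to a single subunit in bacteria such as E. coli, had values of -1.05, -0.92 and 2.19 in 35S-PaWRKY1 replicates 1, 2 and 3, against -1.10, -1.22 and 2.32 in empty-vector replicates 1, 2 and 3. Again the high pair was replicate 3, and the ranges of the genotypes overlapped. The gap of replicate 3 was 3.17 in 35S-PaWRKY1 and 3.49 in empty-vector plants. The rpoC2 gene had values of -1.11, -1.09 and 2.22 in 35S-PaWRKY1 replicates 1, 2 and 3, against -0.67, -1.42 and 2.095 in empty-vector replicates 1, 2 and 3. Its 2 low empty-vector arrays were 0.75 apart, the widest such spacing among the 5 genes, while replicate 1 minus replicate 2 was -0.017 in 35S-PaWRKY1. The gap of replicate 3 was 3.32 in 35S-PaWRKY1 and 3.14 in empty-vector plants.

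The ribosomal gene rps2 had the smallest gap of the 5. Its values were -0.55, -0.55 and 1.75 in 35S-PaWRKY1 replicates 1, 2 and 3, against -0.78, -0.98 and 1.76 in empty-vector replicates 1, 2 and 3. Both low 35S-PaWRKY1 arrays lay above both low empty-vector arrays, while the high arrays of the genotypes were level. The gap of replicate 3 was 2.31 in 35S-PaWRKY1 and 2.64 in empty-vector plants.

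The ATP synthase gene atpA followed the polymerase genes. Its values were -1.45, -1.09 and 1.99 in 35S-PaWRKY1 replicates 1, 2 and 3, against -0.89, -1.25 and 2.14 in empty-vector replicates 1, 2 and 3. The gap of replicate 3 was 3.26 in 35S-PaWRKY1 and 3.21 in empty-vector plants, and the genotypes overlapped.

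**Figure D1:**
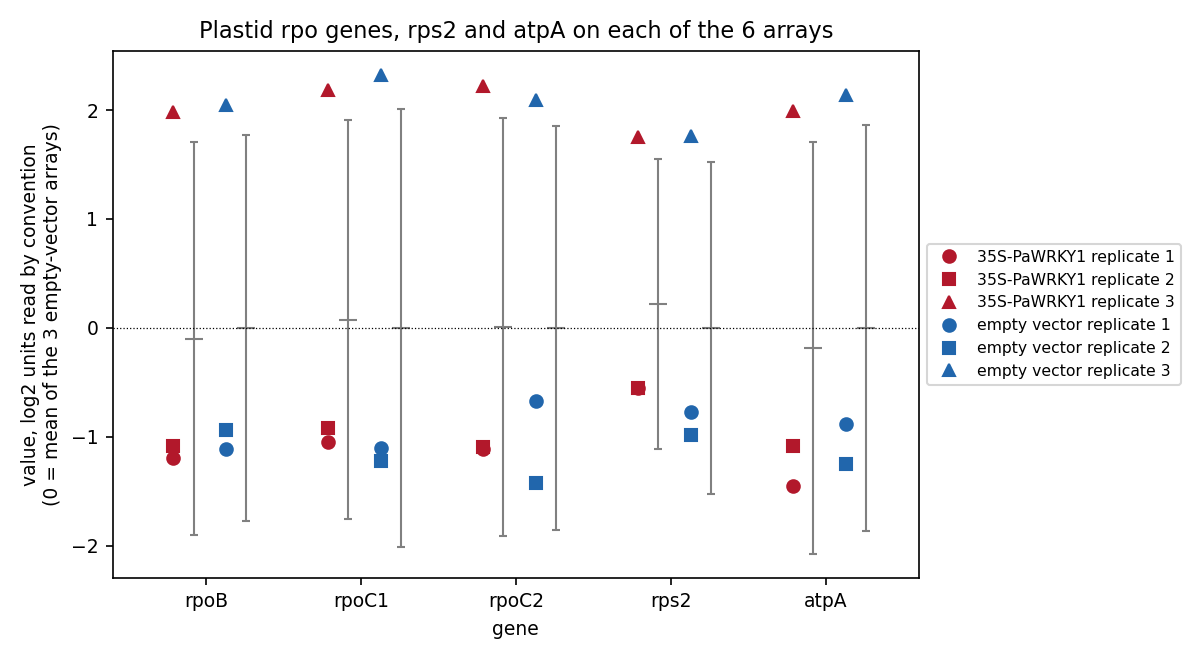
Values of the 5 genes on each array (y axis, log2 units read by convention, 0 being the mean of the 3 empty-vector arrays), with 35S-PaWRKY1 left of empty vector for each gene. Symbols are single arrays, and grey bars are the group mean and SD of 3 arrays. Both replicate 3 arrays lie at 1.75 or above, and the other 4 arrays lie at -0.55 or below.

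The replicate number accounted for 98.6% to 99.9% of the sum of squares over the 6 arrays for the 5 genes, and the genotype for at most 0.842%. Over all probe sets the median was 42.1% for replicate number and 15.6% for genotype. With 3 replicate numbers and 2 genotypes, the replicate number takes the larger share on average even in pure noise. These medians therefore do not show which of them weighs more over all probe sets. In limma, the F test over the replicate number called 5 of the 5 genes, beside 97 of all 22746 probe sets, or 0.426% (adjusted p under 0.05), and since the genes were chosen on this contrast nothing is read from that count. With the arrays normalized to equal quantiles this test called 0 of 22746 probe sets (2374 at an unadjusted p under 0.05), so each call of the F test named below holds for the values as deposited. Both replicate 3 arrays lay above the other 4 arrays for 5 of the 5 genes and for 12.5% of all probe sets. A gap above 1 in both genotypes was seen for 5 of the 5 genes and for 0.334% of all probe sets. Ranked by the mean gap among 22746 probe sets, rpoC1 stood 2nd, atpA 3rd, rpoC2 4th, rpoB 5th and rps2 10th. The places between them and above them were held by ndhH, psaA, accD, rbcL and rps15, all plastid-encoded.

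**Figure D2:**
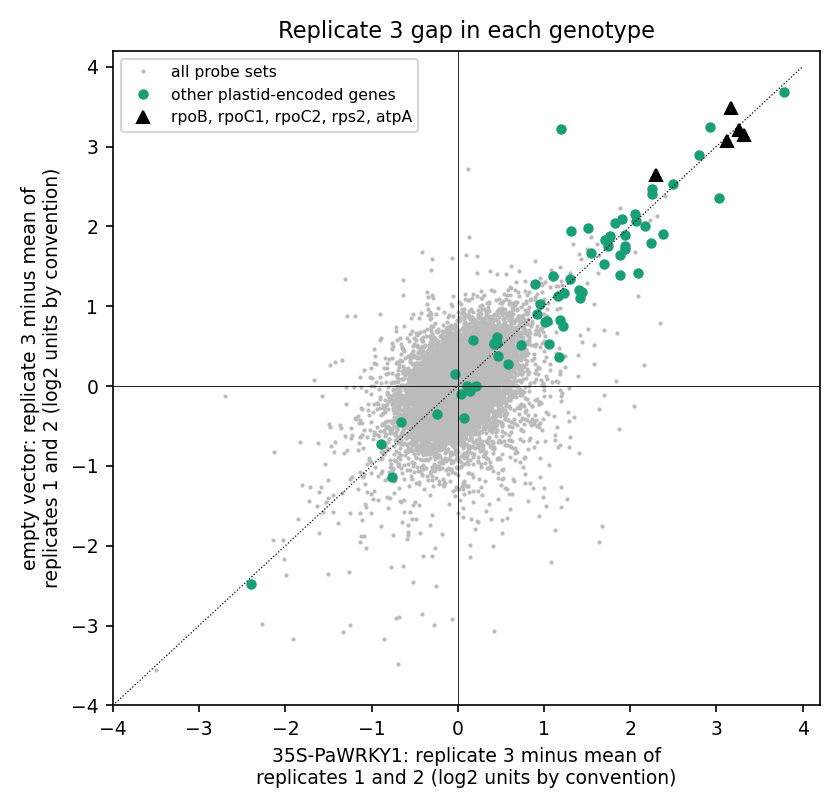
Gap between replicate 3 and the mean of replicates 1 and 2 in 35S-PaWRKY1 (x axis) against that in empty-vector plants (y axis), in log2 units by convention, for all probe sets, the other 64 plastid-encoded genes and the 5 genes. The dotted line marks equal gaps, and the 5 genes lie close to it, the gap of 35S-PaWRKY1 minus that of empty vector running from -0.33 to 0.18.

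Some array-wide controls moved with the replicate number. The 9 probe sets for the hybridisation spike-ins bioB, bioC, bioD and cre, which the standard Affymetrix protocol adds in fixed amounts, had a median of -0.33 in 35S-PaWRKY1 replicate 3, against 0.13 and 0.27 in 35S-PaWRKY1 replicates 1 and 2. In empty-vector plants that median was -0.28 in replicate 3, against 0.093 and 0.11 in replicates 1 and 2. The 12 poly-A spike-in probe sets shifted the same way, with ranges that overlapped between arrays. Their median was -0.10 in 35S-PaWRKY1 replicate 3, against 0.073 and 0.22 in 35S-PaWRKY1 replicates 1 and 2. In empty-vector plants it was -0.091 in replicate 3, against 0.021 and 0.07 in replicates 1 and 2. The part of these shifts in the gap of the 5 genes was not tested. The difference between the 3' and 5' probe sets of actin was -0.19 in 35S-PaWRKY1 replicate 3, against 0.27 and -0.029 in 35S-PaWRKY1 replicates 1 and 2, and -0.042 in empty-vector replicate 3, against -0.063 and 0.10 in empty-vector replicates 1 and 2. For GAPDH the same difference ran from -0.082 to 0.095 over the 6 arrays, and for ubiquitin from -0.177 to 0.135. The probe set for 25S ribosomal RNA was at 1.67 in empty-vector replicate 3 and between -1.27 and -0.54 on the other 5 arrays, so it was not high in 35S-PaWRKY1 replicate 3.

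The matched markers of green tissue did not show the gap. Of 23 shoot markers, 5 were matched to a probe set of their own: RCA (activase of Rubisco), LHCB4.1 (a light-harvesting protein), PSAE-1 (a photosystem I subunit), and the Calvin cycle enzymes PRK and SBPASE. Their mean gaps ran from -0.085 to 0.15, and 0 of 5 passed the F test over the replicate number, beside 0.426% of all probe sets. Of 18 root markers, 3 were matched, with mean gaps from -0.18 to 0.087 and 0 of 3 past that test. At that share lists this short would hardly hold a call, so nothing is read from these counts. By genotype, 0 of 5 shoot and 0 of 3 root markers passed in limma. An unadjusted p under 0.05 was reached by 0 of 5 shoot and 2 of 3 root markers, beside 8.01% of all probe sets. Among the shoot markers, RCA was at -0.029 in 35S-PaWRKY1 replicate 3, against 0.028 and 0.062 in 35S-PaWRKY1 replicates 1 and 2. It was at -0.064 in empty-vector replicate 3, against 0.046 and 0.018 in empty-vector replicates 1 and 2.

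The comparison of 35S-PaWRKY1 with empty vector asks whether the transcripts differ when PaWRKY1 is expressed. Without regard to the replicate number, the spread between replicates was far larger than any difference between the genotypes for all 5 genes. The difference was -0.10 for rpoB (SE 1.12, 95% interval -2.74 to 2.55), 0.075 for rpoC1 (SE 1.2001, interval -2.77 to 2.92) and 0.0046 for rpoC2 (SE 1.18, interval -2.79 to 2.80). For rps2 it was 0.22 (SE 0.894, interval -1.91 to 2.34), and for atpA -0.18 (SE 1.17, interval -2.96 to 2.60), with n = 3 per group throughout. In limma, 0 of the 5 passed in either direction, and an unadjusted p under 0.05 was reached by 0 of the 5, beside 7 of 22746 probe sets called, or 0.0308%, and 8.01% with an unadjusted p under 0.05. The genotypes did not overlap for 0 of the 5 genes and for 14.5% of all probe sets.

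Set against the array of the same number, the genotypes lay close together. The difference of same-numbered arrays for rpoB was -0.088, -0.14 and -0.062 for replicates 1, 2 and 3. It was 0.054, 0.31 and -0.14 for rpoC1. All 3 differences of rpoB were below 0, while those of rpoC1 had both signs. For rpoC2 they were -0.44, 0.33 and 0.13, and for atpA -0.57, 0.17 and -0.15, again of both signs. For rps2 they were 0.22, 0.43 and -0.0067, so the 2 pairs of low arrays lay above 0 and the pair of high arrays did not differ visibly.

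With the replicate number as a block the estimates were the same and the intervals narrow. The 95% interval was -0.31 to 0.12 for rpoB, -0.21 to 0.36 for rpoC1 and -0.39 to 0.40 for rpoC2. It was -0.066 to 0.50 for rps2 and -0.56 to 0.20 for atpA. Each of the 5 intervals includes 0, which does not show that the genotypes were alike. With the block, 0 of the 5 passed, beside 6 of 22746 probe sets, or 0.0264%. The labels do not state a pairing by number. The data show a match of the replicate 3 arrays, and the pairing of the other arrays is assumed. The narrow intervals hold only under that pairing. Leaving out any single array without the block moved the differences far, because it unbalances the high arrays: without 35S-PaWRKY1 replicate 3 they ran from -1.27 for atpA to -0.55 for rps2, and without empty-vector replicate 3 from 0.89 for atpA to 1.24 for rpoC1. For each of the 5 genes these settings gave the lowest and the highest difference among the 6 arrays left out in turn.

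**Figure D3:**
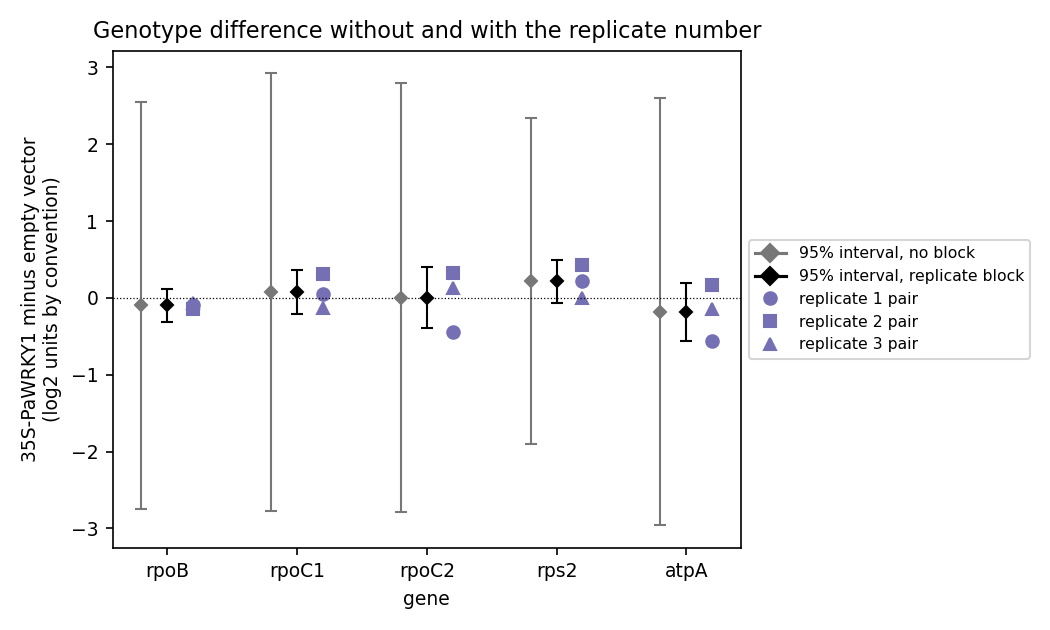
Difference of 35S-PaWRKY1 minus empty vector for each gene (y axis, log2 units by convention), with its 95% interval without a block (grey) and with the replicate number as a block (black), and the difference of each same-numbered pair of arrays (purple). The grey intervals reach from -2.96 to 2.92 and the black ones from -0.56 to 0.50.

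The 5 genes followed each other closely over the 6 arrays, with Pearson r of 0.983 to 0.997 over their 10 pairs. These values rest on the replicate 3 arrays: over the other 4 arrays r ran from -0.83 between rpoB and rps2 to 0.91 between rpoC1 and rps2. All points share the same 6 arrays, and r is given as a description.

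Among the neighbours on the stretch, the genes between atpA and rps2 showed a smaller gap. The atpF gene, for subunit b of the ATP synthase stalk, had a gap of 2.05 in 35S-PaWRKY1 and 2.15 in empty-vector plants. The atpH gene, for the subunit of the membrane ring, had 2.24 in 35S-PaWRKY1 and 1.80 in empty-vector plants, and both genes passed the F test over the replicate number in limma (adjusted p 0.00628 and 0.0133). The atpI gene, for subunit a, which lies beside rps2, had 1.19 in 35S-PaWRKY1 and 0.83 in empty-vector plants and did not pass (adjusted p 0.308). Its values were -0.72, -0.33 and 0.67 in 35S-PaWRKY1 replicates 1, 2 and 3, against 0.19, -0.74 and 0.55 in empty-vector replicates 1, 2 and 3, so the replicate 3 arrays were again the highest, with less distance to the rest. On the other side of rpoB, the cytochrome b6f gene petN had a gap of 0.42 in 35S-PaWRKY1 and 0.53 in empty-vector plants (adjusted p 0.362). On the other side of atpA, the photosystem II gene psbI had 1.55 in 35S-PaWRKY1 and 1.67 in empty-vector plants (adjusted p 0.0792). Whether the gap of the 5 genes differs from that of these neighbours was not tested.

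**Figure D4:**
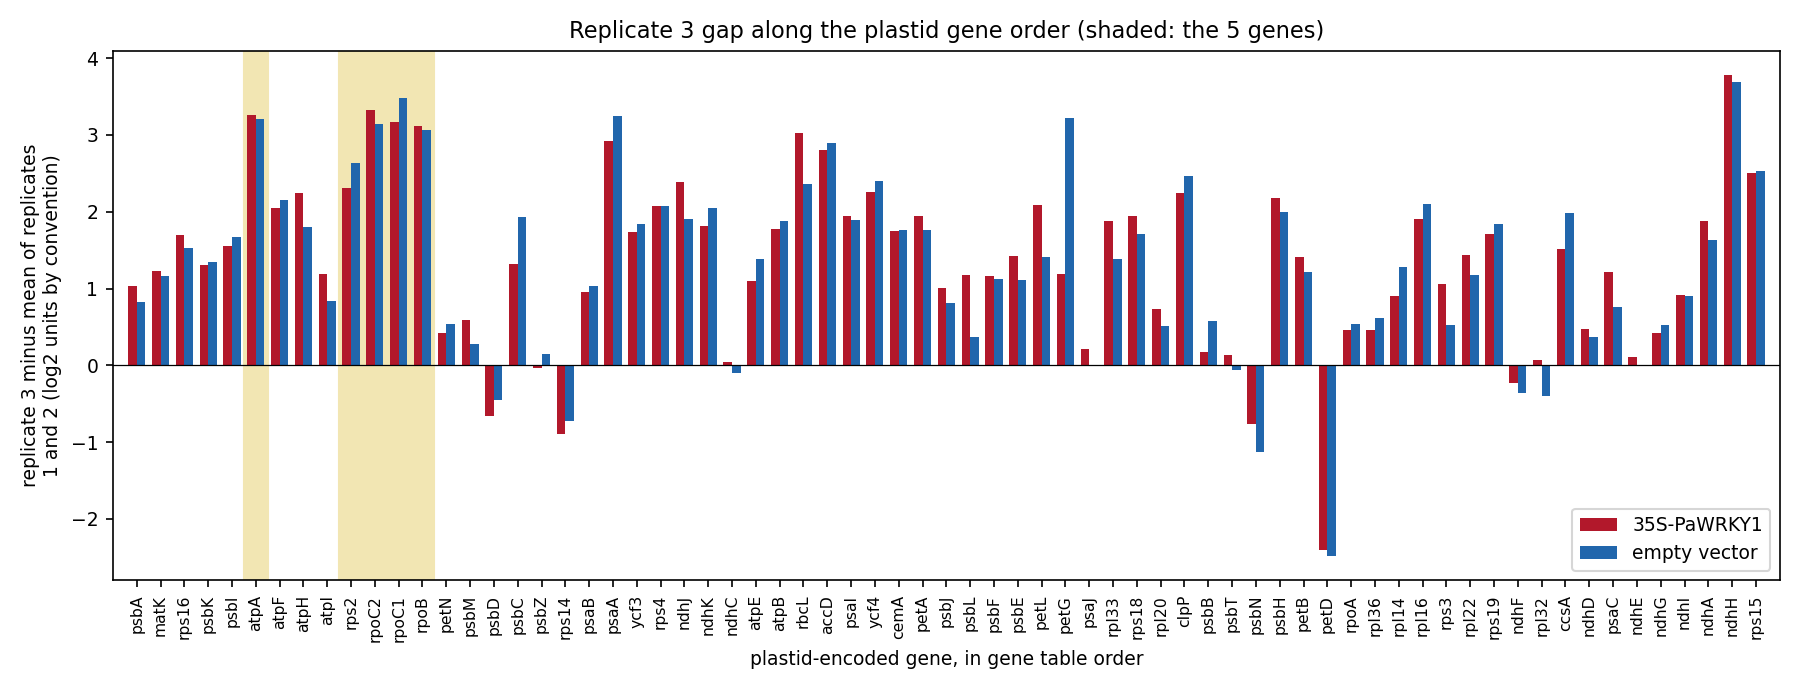
Gap between replicate 3 and the mean of replicates 1 and 2 (y axis, log2 units by convention) for the 69 plastid-encoded genes in gene table order, 35S-PaWRKY1 left of empty vector for each gene, with the 5 genes shaded. The gap is above 0 in both genotypes for the 5 genes and for 54 of the other 64, and petD has the lowest, at -2.40 in 35S-PaWRKY1 and -2.48 in empty-vector plants.

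The fourth core subunit gene of the polymerase, rpoA, lies elsewhere in the plastid genome, in the gene table between petD and rpl36. It had a gap of 0.46 in 35S-PaWRKY1 and 0.54 in empty-vector plants and did not pass the F test (adjusted p 0.217), where rpoB, rpoC1 and rpoC2 had gaps of 3.07 to 3.49. Its values were -0.15, -0.10 and 0.34 in 35S-PaWRKY1 replicates 1, 2 and 3, against -0.091, -0.27 and 0.36 in empty-vector replicates 1, 2 and 3. Both replicate 3 arrays were again the highest, with a smaller distance to the rest on this scale.

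Among genes of the chloroplast ATP synthase, the gap was seen for those in the plastid genome and not for the 2 nuclear ones that were matched, a contrast that was not itself tested. Besides atpA, all 5 plastid-encoded ones had a gap above 0 in both genotypes, and 4 of them passed the F test, beside 0.426% of all probe sets: atpF, atpH, atpB (the beta subunit) and atpE (the epsilon subunit). The atpB gene had a gap of 1.77 in 35S-PaWRKY1 and 1.87 in empty-vector plants (adjusted p 0.0182). The nuclear ATPC1, which encodes the gamma subunit of the same enzyme, had values of -0.022, -0.018 and -0.0097 in 35S-PaWRKY1 replicates 1, 2 and 3, against 0.035, -0.080 and 0.045 in empty-vector replicates 1, 2 and 3. Neither replicate 3 array stood apart for ATPC1, its gap being 0.0099 in 35S-PaWRKY1 and 0.067 in empty-vector plants (adjusted p 0.943). For ATPC2, a second gamma subunit gene, the gap was -0.23 in 35S-PaWRKY1 and 0.13 in empty-vector plants (adjusted p 0.908). Of the 9 listed genes 8 were matched, and 0 of the 8 passed the genotype test, beside 0.0308% of all probe sets. The unadjusted p was under 0.05 for 0 of the 8 in limma.

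**Figure D5:**
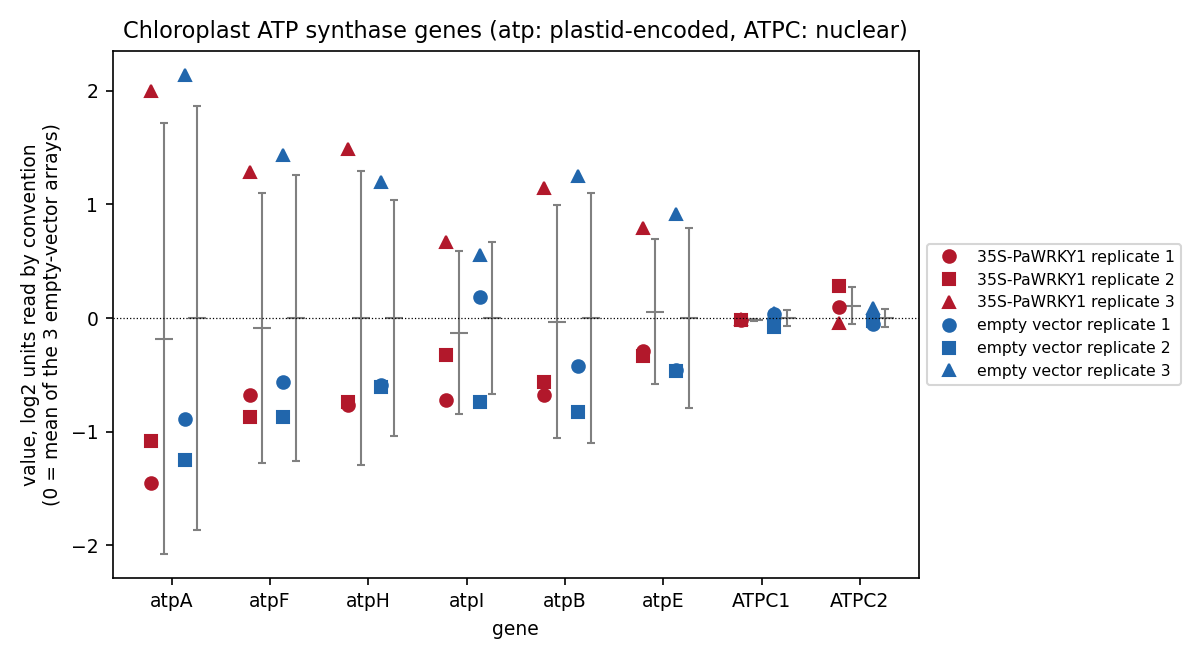
Values of 8 chloroplast ATP synthase genes on each array (y axis, log2 units by convention), with 35S-PaWRKY1 left of empty vector for each gene, and grey bars for the group mean and SD of 3 arrays. The replicate 3 arrays are the highest for the 6 plastid-encoded genes, while all values of the nuclear ATPC1 lie between -0.080 and 0.045.

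The genes listed as wholly or largely transcribed by the nuclear-encoded polymerase include the 3 rpo genes. Besides these, 5 of the other 9 listed names were matched, clpP being listed also as clpP1. Their median mean gap was 2.36, and 3 of the 5 passed the F test over the replicate number, beside 0.426% of all probe sets. The accD gene, for a subunit of the plastid acetyl-CoA carboxylase, had a gap of 2.80 in 35S-PaWRKY1 and 2.89 in empty-vector plants (adjusted p 0.00486). The ribosomal gene rps15 had 2.50 in 35S-PaWRKY1 and 2.53 in empty-vector plants (adjusted p 0.0159), and the protease gene clpP had 2.25 in 35S-PaWRKY1 and 2.47 in empty-vector plants (adjusted p 0.0242). The other 2, rpl33 and rps18, had gaps of 1.88 and 1.94 in 35S-PaWRKY1 and 1.38 and 1.71 in empty-vector plants and did not pass (adjusted p 0.0756 and 0.105).

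Among genes listed as transcribed mainly by the plastid-encoded polymerase, 37 of 38 were matched and 15 passed the F test, beside 0.426% of all probe sets, with a median mean gap of 0.99. The photosystem I gene psaA had a gap of 2.92 in 35S-PaWRKY1 and 3.24 in empty-vector plants, and rbcL, for the large subunit of Rubisco, 3.03 in 35S-PaWRKY1 and 2.36 in empty-vector plants. The petD gene, for a cytochrome b6f subunit, passed in the other direction, at -1.74 in 35S-PaWRKY1 replicate 3, against 0.61 and 0.70 in 35S-PaWRKY1 replicates 1 and 2. In empty-vector plants petD was at -1.66 in replicate 3, against 1.07 and 0.59 in replicates 1 and 2. The gaps of the lists were not tested against each other.

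Of the 15 plastid-encoded ribosomal protein genes, rps2 had the second largest mean gap, 2.47, next to 2.51 for rps15. Of the other 14, 4 passed the F test (rps4, rps15, rps16 and rpl16), beside 0.426% of all probe sets, and their mean gaps ran from -0.81 for rps14 to 2.51. The rps14 gene was lower in replicate 3 of both genotypes and did not pass (gap -0.89 in 35S-PaWRKY1 and -0.73 in empty-vector plants, adjusted p 0.271).

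Over all 64 other plastid-encoded genes, 29 passed the F test over the replicate number, beside 0.426% of all probe sets, 28 of them with a mean gap above 0 and petD below. This count was 0 with equal quantiles, with 52 of the 64 at an unadjusted p under 0.05 in limma. With single arrays left out it was 19 without 35S-PaWRKY1 replicate 1, 3 without 35S-PaWRKY1 replicate 2, 17 without empty-vector replicate 1 and 3 without empty-vector replicate 2. The median mean gap was 1.29, where that of the 5 genes was 3.23 and that of all probe sets was -0.0022. By genotype, limma passed 0 of the 64 in either direction, and the unadjusted p was under 0.05 for 1 (psbZ, 0.36 above empty vector, adjusted p 0.417). The median difference of the 64 was 0.044, where that of the 5 genes was 0.0046 and that of all probe sets was -0.037.

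The nuclear genes that work with the polymerase could hardly be followed. Of 6 sigma factors, which bring the plastid-encoded polymerase to its promoters, and of 15 listed proteins associated with it, 0 were matched to a probe set of their own by the annotation used here. Of the 3 phage-type organelle polymerase genes, AT5G15700 was matched. It was at -0.073 in 35S-PaWRKY1 replicate 3, against -0.15 and -0.063 in 35S-PaWRKY1 replicates 1 and 2. In empty-vector plants it was at 0.088 in replicate 3, against -0.025 and -0.063 in replicates 1 and 2, and it did not pass the F test (adjusted p 0.905) or the genotype test (difference -0.094, SE 0.084, adjusted p 0.828).

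Outside the 5 genes, those with the pattern most like their mean over the 6 arrays were rpl16 (Pearson r 0.9986), ycf3 (0.9984), psaB (0.9972), ndhK (0.9972) and ndhH (0.9970), out of 13508 single-gene probe sets compared. All 5 are plastid-encoded, as were 17 of the 20 and 32 of the 50 most alike, where plastid-encoded genes made up 0.474% of those compared. Likeness of pattern did not go with an equal size of gap. The psaB gene had 0.96 in 35S-PaWRKY1 and 1.03 in empty-vector plants, while ndhH had 3.78 in 35S-PaWRKY1 and 3.68 in empty-vector plants, the largest mean gap of all probe sets. The 3 nuclear genes among the 20 most alike were AT1G09980, AT5G14720 and AT4G01290, with gaps of 1.14, 1.63 and 1.88 in 35S-PaWRKY1 and 1.25, 1.41 and 2.23 in empty-vector plants. These names were taken from the ranking after its values were seen.

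The 5 genes had a longer median span than the other plastid genes. Their span in the gene table, introns included, had a median of 2834 bases and ran from 711 for rps2 to 4131 for rpoC2, where the other 64 had a median of 501. Across the 69 plastid genes the span and the mean gap had a Spearman rho of 0.35, and across the 64 without the 5 genes 0.23. Genes are not independent replicates, many are transcribed together and all share the same 6 arrays, so no test is given. Short genes had gaps of unlike size: atpH, with 246 bases, had a mean gap of 2.02, and psaJ, with 135 bases, had 0.10.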

How the data were processed

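Total RNA was biotin-labelled and hybridised to Affymetrix arrays, per the labels' protocols. The authors deposited values that look logarithmic, with entries below 0, and they were taken to be log2 values. The submitters' processing notes list MAS5 and RMA without a version or role. As a check on the file showed, the authors centred every probe set on the empty-vector mean (largest deviation 1.3e-06). The normalization between arrays is not given in the sources used here, and no further one was applied.

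With 64 control probe sets left out, 22746 remained: 13513 with 1 gene in the platform annotation, 503 with several and 8730 with none given. Symbols came from RefSeq's table of TAIR10.1. Models were fitted in R 4.3.3 with limma 3.58.1 (lmFit, then eBayes). Tests were two-sided, and p-values were adjusted by Benjamini-Hochberg over all probe sets, with 0.05 as the threshold. The F test over the replicate number had the genotype as a covariate. Both fits were tested on simulated data with independent noise on each array. Noise shared by arrays of the same number was not simulated, so nothing is read from that check here. With 3 arrays per group, precision is limited by their number.

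To check for pairing, each array's deviation from its group mean was correlated with that of the array of the same number. The values were 0.314, 0.194 and 0.453 for replicates 1, 2 and 3 (0.300, 0.151 and 0.404 without the 69 plastid-encoded probe sets). Among arrays of unlike number the highest value was 0.171, between 35S-PaWRKY1 replicate 2 and empty-vector replicate 1 (0.147 without those probe sets), close to the value for replicate 2. Each same-number value exceeds 0.1, but so does the value of that unlike pair, so this cut does not set pairs apart. The numbers were treated as pairs without a statement in the labels. Because deviations within a group sum to 0, a match of replicate 3 by itself lifts the other correlations, and the pairing of replicates 1 and 2 is assumed.

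The 5 genes and all lists were chosen with earlier results of these data known. Named were the 5 genes, the 5 genes most like them by Pearson r, and list members: all of a list of up to 12, otherwise up to 12. Some of these are given only in counts, and neighbours on the plastid genome, rpoA and petD were added for their place or values. Alternatives were median centring, equal quantiles, the replicate number as a block, array weights, robust eBayes and arrays left out.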

Additional observations from a re-analysis of the deposited data

How the results depend on the processing

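No alternative brought any of the 5 genes past the genotype threshold in limma, the smallest adjusted p being 0.554 (rps2 with the replicate block), and 0 of 69 plastid-encoded genes passed under any of the 12 alternatives, with 1 to 5 at an unadjusted p under 0.05. Signs were less stable. With equal quantiles rpoB was at 0.10 and atpA at 0.023, array weights put atpA at 0.012, and without both replicate 3 arrays rpoC2 was at -0.056. That last setting gave 0.33 for rps2, at an unadjusted p of 0.0334. With single arrays left out the differences ran from -1.14 to 0.92 for rpoB, -0.98 to 1.24 for rpoC1, -1.10 to 1.05 for rpoC2, -0.55 to 1.09 for rps2 and -1.27 to 0.89 for atpA.

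The count of 7 probe sets called by genotype was 0 with equal quantiles, 11 with array weights, 1 with robust eBayes, 0 without both replicate 3 arrays, 1 at an adjusted p under 0.01 and 0 to 1 with single arrays left out. Where limma made 0 calls, the number with an unadjusted p under 0.05 was 1022 for equal quantiles, 1914 without both replicate 3 arrays and 1062 without 35S-PaWRKY1 replicate 2. The replicate block gave 6 calls and changed no call of the 5 genes. The F test over the replicate number called 0 of 22746 and 0 of the 64 other plastid-encoded genes with equal quantiles, with 2374 and 52 at an unadjusted p under 0.05 in limma; the cause was not tested. With single arrays left out, an alternative chosen after seeing the data, it called 6 to 171 probe sets and 3 to 25 of the 64. The mean gaps of the 5 genes moved by less than 0.1 with median centring or equal quantiles. By Spearman rho, 1 of the 5 most alike genes remained among the first 5, where 20 probe sets were tied at a rho of 1; median centring kept 4.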
